A study of Mus musculus with 40 samples.

Results

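The genes of MHC class I antigen presentation and Cd274, the gene of PD-L1, were followed across mouse melanoma cells with altered Bmal1, a transcription factor of the circadian clock. The members are 10 of the 51789 genes in the count table, namely H2-K1, H2-D1, B2m, Tap1, Tap2, Tapbp, Nlrc5, Psmb8, Psmb9 and Cd274. They were listed by name, and their Ensembl identifiers were matched to mouse gene symbols. RNA 3′ ends were sequenced (QuantSeq) in 40 libraries, 2 for each of 20 groups of cells grown in culture without a described interferon treatment. The groups come from 3 lines. B16-F10 is a mouse melanoma line, present as a Ctrl clone and a Bmal1 KO clone, 1 clone each. YUMM2.1 is a line from mouse melanoma with Braf V600E, loss of 1 Cdkn2a copy and stabilized β-catenin, and YUMM1.7 carries Braf V600E with loss of Cdkn2a. Both received lentivirus with empty vector (EV), wild-type Bmal1 (WT-Bmal1) or dHLH-Bmal1, which lacks the helix-loop-helix domain that binds DNA. The same 3 vectors were put into aC3, a single CRISPR clone of YUMM2.1 without Bmal1. YUMM2.1 cells with each vector were also given a control hairpin (shNC) or a hairpin against Myh9, the heavy chain of non-muscle myosin IIA (shMyh9#2 or shMyh9#4), and selected with puromycin.

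MHC class I molecules show peptides from inside the cell to CD8 T cells. The heavy chains, encoded by H2-K1 and H2-D1, fold with the light chain β2-microglobulin (B2m). Immunoproteasome subunits (Psmb8, Psmb9) cut proteins into peptides, the transporter made of Tap1 and Tap2 carries them into the endoplasmic reticulum, and tapasin (Tapbp) holds the empty class I molecule at the transporter until a peptide binds. Nlrc5 is a transactivator of most of these genes, and interferon-γ raises the whole set. PD-L1 is a ligand on the cell surface that inhibits T cells through PD-1, and interferon-γ induces it too. Tumour cells often carry little class I on their surface, and B16-F10 is widely used as a melanoma of low class I.

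Library totals lay between 3643332 and 22970049 counts with a median of 10021164.5. Levels are given as CPM, the usual unit of counts scaled to library size, here with TMM factors, and 1 CPM was 10.2 counts in the median library and 3.55 in the shallowest. Every adjusted p comes from the quasi-likelihood test of edgeR, corrected by Benjamini-Hochberg over all genes of a fit, and a gene is called at an adjusted p under 0.05. The study describes its duplicates as biological for most sets of cells, while the labels only number the libraries, and the p-values measure the spread between these duplicates. A permutation test of 2 against 2 cannot give a p under 0.333, and none was run. A supplementary table of normalized counts has a pair of YUMM2.1 labels the other way round. Its second EV column matched the deposited first WT-Bmal1 library, and its first WT-Bmal1 column matched the deposited second EV library, while the other 6 columns compared matched their own labels. The comparisons with YUMM2.1-EV or YUMM2.1-WT are therefore given as deposited and with these 2 labels exchanged. Myh9 fell in all 6 comparisons of a Myh9 hairpin with shNC, by 1.52 to 2.04 on the log2 scale with shMyh9#2 and by 0.42 to 0.93 with shMyh9#4. Arntl, the gene symbol of Bmal1, had 319 and 221 counts in B16-F10 Ctrl and 326 and 240 in the 2 libraries that carry the Bmal1 KO label. Tags from the 3′ end do not read an edit in the coding sequence or a vector copy that lacks this end, so these counts check neither the knockouts nor the vectors. Of the melanocyte markers, Tyrp1 and Mlana had no count in 36 of the 40 libraries, and the summed level of 7 such markers was 19764 to 26052 CPM in B16-F10, 31.5 to 626 in YUMM2.1 and its aC3 clone, and 10.7 to 14.8 in YUMM1.7. Sox10 had the highest median of these 7 over the 40 libraries, at 141 CPM, and Mitf followed with 17.8. The T cell and NK cell markers Cd3e and Nkg7 had no count in any library, and the sum of 8 leukocyte markers did not exceed 3.13 CPM. In bulk RNA, fewer cells that express a gene and less RNA per cell cannot be told apart.

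B2m was the member with the most counts, between 1414 and 7183 in a library. H2-D1 had 75 to 1248 counts, Tapbp 164 to 901 and H2-K1 0 to 390. Cd274 had 2 to 221 counts with a median of 13.5, and Tap1 had 1 to 39 with a median of 9. The remaining members were barely read. Tap2 had no count in 11 of 40 libraries, Nlrc5 in 12, Psmb9 in 25 and Psmb8 in 33, and the highest count of any of these genes in a library was 21. Psmb8 summed to 24 counts and Psmb9 to 33 over all 40 libraries. Psmb8 and Psmb9 were too low for the test in every fit, Tap2 and Nlrc5 in most. Psmb10, an immunoproteasome subunit that is not a member, was read in every library, with a median of 11.4 CPM. The low-count filter left 7 members in the fits of the lines, of YUMM1.7 and of the hairpin cells, 6 in those of aC3 and YUMM2.1, and 5 in that of B16-F10. A gene passes this filter where enough libraries hold it, also where only 1 group does.

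**Figure D1:**
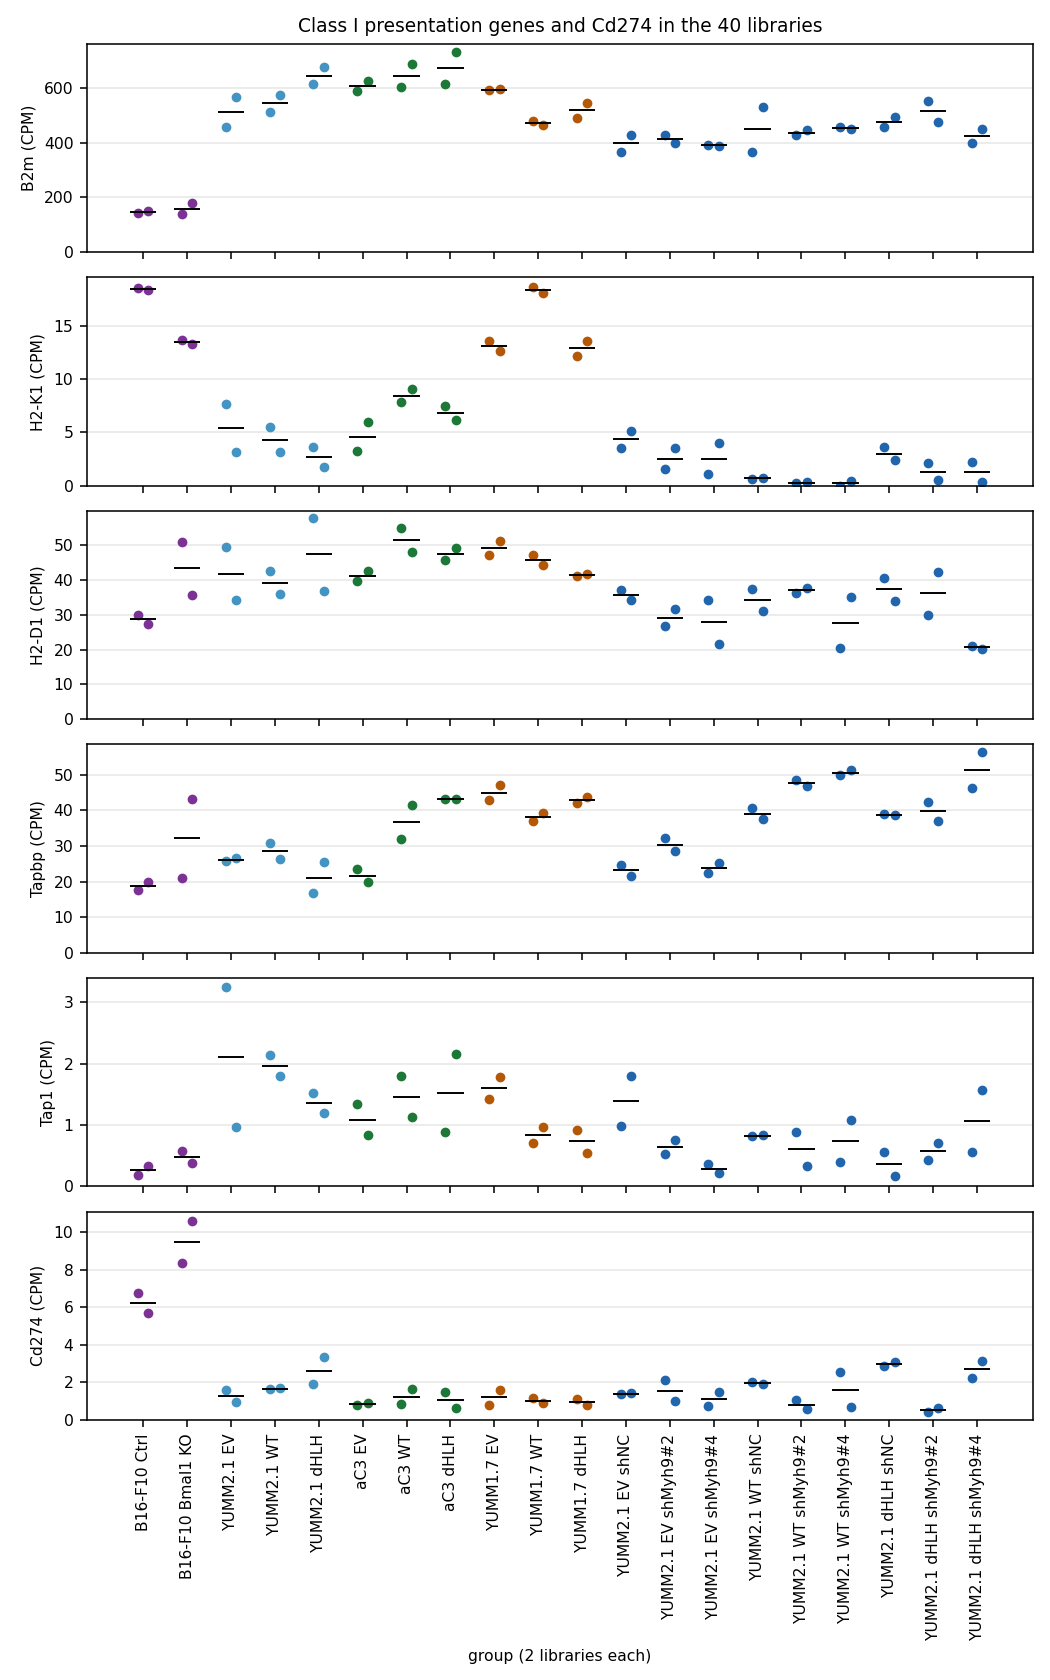
Level of 6 members in each library (points, CPM, y axis) by group (x axis), with a line at the mean of the 2 libraries. B2m is lowest in the 4 B16-F10 libraries and Cd274 highest in them, while the means of H2-K1 are lowest in the 3 groups with WT-Bmal1 and a hairpin.

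Most members lie close together. H2-K1 (chr17:33996017-34000347, minus strand), Tapbp (chr17:33915899-33929292), Psmb9 (chr17:34181987-34187764, minus strand), Tap1 (chr17:34187553-34197225), Psmb8 (chr17:34197721-34201454), Tap2 (chr17:34203527-34216321) and H2-D1 (chr17:35262730-35267499) lie in the mouse MHC, in GRCm38 (mm10) coordinates of GENCODE M21. B2m is at chr2:122147686-122153083, Nlrc5 at chr8:94434356-94527272 and Cd274 at chr19:29367455-29388095. All 10 are protein-coding genes. Tap1 and Psmb9 overlap on opposite strands, and the strand used in counting is not stated, so their counts may share reads. Tapbp overlaps Zbtb22 on the same strand, which shares 1.57% of the 75-base words in the last 400 bases of its transcripts. H2-K1 shares 2.1% of these words with H2-D1 and other class I genes or their pseudogenes, and the counting divides such reads.

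The promoters of H2-K1 and B2m are shown because these genes, a heavy chain and the light chain it folds with, differed in opposite directions between B16-F10 and YUMM2.1. They are RefSeq sequence on GRCm38.p6, read 5′ to 3′ on the strand of the gene and ending at the base before the start in GENCODE. Capitals mark 2 searched motifs, an NF-κB-like one of 10 letters (first in H2-K1, second in B2m) and an interferon-response-element-like (ISRE-like) one of 10 letters (first in B2m), read on either strand.
H2-K1 (chr17:34000348-34000597, minus strand): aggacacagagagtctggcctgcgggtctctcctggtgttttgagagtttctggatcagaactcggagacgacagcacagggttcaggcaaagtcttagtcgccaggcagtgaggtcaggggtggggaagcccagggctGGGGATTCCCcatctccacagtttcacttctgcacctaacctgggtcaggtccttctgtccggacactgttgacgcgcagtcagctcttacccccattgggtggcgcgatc
B2m (chr2:122147437-122147685, plus strand): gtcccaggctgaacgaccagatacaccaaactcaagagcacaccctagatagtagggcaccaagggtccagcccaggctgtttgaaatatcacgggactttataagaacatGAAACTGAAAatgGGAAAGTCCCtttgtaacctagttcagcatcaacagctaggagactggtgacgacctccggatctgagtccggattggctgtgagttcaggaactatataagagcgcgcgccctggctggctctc
Distances are counted from the RefSeq start, which for B2m lies 1 base further in than that of GENCODE. The NF-κB-like letters begin 111 bases before the start in H2-K1 and 126 in B2m. From another RefSeq start of H2-K1 the distance is 125 bases. The ISRE-like letters of B2m begin 139 bases before the start. The H2-D1 window holds the same NF-κB-like letters as that of H2-K1, 171 bases before the start. Among 32851 promoter windows of mouse genes, 4.11% held the NF-κB-like motif and 2.98% the ISRE-like motif. Windows were given for 8 of the 10 members, without Tap2 and Nlrc5. Those of H2-D1, Tap1, Tapbp, Psmb8 and Psmb9 lie wholly within exons that GENCODE annotates, and 185 of the 250 bases of that of Cd274 lie in exons of Plgrkt, so these windows are not free of transcribed sequence. The letters TGACG, the core of an X2-like element of the SXY module at class I promoters, read on both strands, were in 5 of these 8 (H2-K1, H2-D1, B2m, Tap1 and Psmb9) and in 17.8% of all windows. The Tap1 and Psmb9 windows overlap on opposite strands and share 1 such site, so these 5 are not 5 separate sites. The E-box CACGTG, the motif bound by Bmal1 with Clock, was in none of the 8 and in 6.02% of all windows. A gamma-activated-site-like (GAS-like) motif was in that of Psmb8 alone and in 7.02% of all windows. An AP-1-like motif was in none of the 8 and in 6.75%. These are matches of letters in short windows, and a missing match says only that the letters are not there.

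B16-F10 Ctrl cells had less B2m and Tap1 than YUMM2.1-EV and YUMM1.7-EV cells and more Cd274. Of the 7 members tested against YUMM2.1-EV, 6 were called, 2 higher and 4 lower, where 54.3% of all tested genes were called. B2m stood at 142 and 151 CPM in B16-F10 Ctrl, 458 and 568 in YUMM2.1-EV and 593 and 595 in YUMM1.7-EV. Both B16-F10 libraries were below all libraries of the other lines. B2m was lower than in YUMM2.1-EV by a log2 fold change of -1.83 (SE 0.12, adjusted p = 6.3e-07). Against YUMM1.7-EV, where 6 of 7 members were called (1 higher, 5 lower) and 54.5% of all genes, B2m was lower by -2.04 (SE 0.12, adjusted p = 2.8e-07). In both comparisons the call kept its direction under all alternatives run.

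Among these 3 groups the peptide transporter genes were also lowest in B16-F10 Ctrl, at much lower counts. Some YUMM2.1 hairpin cells were as low. With EV and shMyh9#4, Tap1 was at 0.359 and 0.211 CPM and Tap2 had no count. Tap1 had 4 and 7 counts in B16-F10 Ctrl, 39 and 9 in YUMM2.1-EV and 16 and 19 in YUMM1.7-EV, that is 0.191 and 0.339 CPM against 3.24 and 0.971 and against 1.43 and 1.78. B16-F10 Ctrl lay below both of these EV groups, which overlapped each other. The log2 fold change of Tap1 was -3.00 against YUMM2.1-EV (SE 0.70, adjusted p = 0.0049) and -2.57 against YUMM1.7-EV (SE 0.72, adjusted p = 0.012). Without the first YUMM2.1-EV library the first value was -1.87 and the call was lost (adjusted p = 0.092). The second was lost without B16-F10 Ctrl replicate 1 (-2.21, adjusted p = 0.087) or YUMM1.7-EV replicate 2 (-2.41, adjusted p = 0.066). Tap2 had 4 counts in each B16-F10 Ctrl library, 13 and 3 in YUMM2.1-EV, and 18 and 21 in YUMM1.7-EV. It was lower than in YUMM1.7-EV (log2 fold change -3.17, SE 0.74, adjusted p = 0.0047) and not called against YUMM2.1-EV as deposited (-1.90, SE 0.80, adjusted p = 0.071). Tap2 passed the low-count filter only in fits that hold YUMM1.7, the line where it was highest. The filter and the call against YUMM1.7-EV are thus not independent.

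The 2 heavy chains went opposite ways between B16-F10 Ctrl and YUMM2.1-EV. H2-K1 was at 18.6 and 18.4 CPM in B16-F10 Ctrl and at 7.64 and 3.13 in YUMM2.1-EV, a log2 fold change of 1.72 (SE 0.35, adjusted p = 0.0023). H2-D1 was at 30.0 and 27.3 CPM in B16-F10 Ctrl and at 49.3 and 34.2 in YUMM2.1-EV, a log2 fold change of -0.58 (SE 0.16, adjusted p = 0.013). Neither gene overlapped between these groups. Over the other groups H2-D1 did not separate the 2 lines. Its mean was 43.3 CPM in B16-F10 Bmal1 KO and 20.7 in YUMM2.1 with dHLH-Bmal1 and shMyh9#4. The H2-D1 call was lost without B16-F10 Ctrl replicate 2 (adjusted p = 0.086) and without YUMM2.1-EV replicate 1, where the value was -0.29 (adjusted p = 0.074). Against YUMM1.7-EV, with 47.2 and 51.0 CPM, H2-D1 was lower by -0.80 (SE 0.16, adjusted p = 0.0021). H2-K1 was at 13.6 and 12.6 CPM in YUMM1.7-EV and was not called against B16-F10 Ctrl (0.47, SE 0.32, adjusted p = 0.24). It was higher in YUMM1.7-EV than in YUMM2.1-EV by 1.24 (SE 0.36, adjusted p = 0.022), a call lost without either YUMM1.7-EV library (adjusted p = 0.099 and 0.075). In that comparison 2 of 7 members were called, both higher, and 37.1% of all genes.

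Tapasin differed among B16-F10 Ctrl, YUMM2.1-EV and YUMM1.7-EV. Tapbp was at 17.6 and 19.8 CPM in B16-F10 Ctrl, 25.7 and 26.5 in YUMM2.1-EV and 42.8 and 47.1 in YUMM1.7-EV, with no overlap between any of them. It was higher in YUMM1.7-EV than in YUMM2.1-EV by 0.77 (SE 0.14, adjusted p = 0.0020) and lower in B16-F10 Ctrl than in YUMM1.7-EV by -1.28 (SE 0.14, adjusted p = 3.3e-05). The smaller difference between B16-F10 Ctrl and YUMM2.1-EV (-0.51, SE 0.14, adjusted p = 0.013) was not called without B16-F10 Ctrl replicate 1 (adjusted p = 0.097) or in the fit of all 40 libraries (adjusted p = 0.066). Cd274 was at 6.77 and 5.67 CPM in B16-F10 Ctrl (142 and 117 counts), 1.58 and 0.971 in YUMM2.1-EV (19 and 9 counts) and 0.802 and 1.59 in YUMM1.7-EV (9 and 17 counts). Both B16-F10 libraries were above all 4 others, and the 2 YUMM lines overlapped. Cd274 was higher in B16-F10 Ctrl by 2.23 against YUMM2.1-EV (SE 0.41, adjusted p = 0.0011) and by 2.36 against YUMM1.7-EV (SE 0.41, adjusted p = 0.00079).

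**Figure D2:**
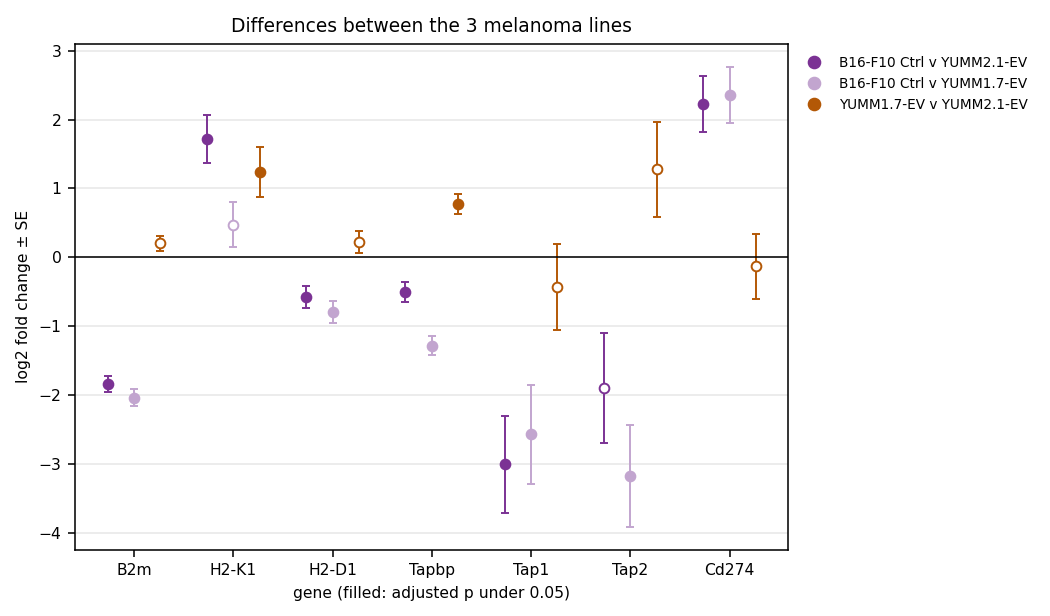
Log2 fold change with its SE (y axis) of 7 members (x axis) in the 3 comparisons of lines (colours), where filled points had an adjusted p under 0.05. B2m and Tap1 lie below 0 and Cd274 above 0 in both B16-F10 comparisons, while H2-K1 and H2-D1 lie on opposite sides.

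With the 2 labels exchanged, B16-F10 Ctrl against YUMM2.1-EV called all 7 tested members (61.7% of all genes), Tap2 among them. YUMM1.7-EV against YUMM2.1-EV then called 3, H2-K1, Tapbp and B2m (48.5% of all genes). B2m had a log2 fold change of 0.28 (SE 0.08, adjusted p = 0.0087). The aC3-EV cells, derived from YUMM2.1, had no member called against YUMM2.1-EV by edgeR (0 of 7 at an unadjusted p under 0.05, 0 with DESeq2), where 1.75% of all genes were called. With the labels exchanged 9.76% were called, and B2m was higher in aC3-EV, at 607 against 486 CPM (log2 fold change 0.31, SE 0.08, adjusted p = 0.019). B2m was also called without YUMM2.1-EV replicate 2.

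Regulators and targets of interferon signalling were counted beside the members, in comparisons where 54.3% (against YUMM2.1-EV) and 54.5% (against YUMM1.7-EV) of all genes were called. Of 27 listed regulators of class I and PD-L1, 25 were tested. In B16-F10 Ctrl 13 were lower and 1 higher than in YUMM2.1-EV (median log2 fold change -0.38, and -0.01 over all genes) and 10 were lower and 2 higher than in YUMM1.7-EV. The 14 and 12 regulators called are close to the share of all genes called. Socs1, an inhibitor of interferon signalling, was at 0.288 CPM in B16-F10 Ctrl, 5.04 in YUMM2.1-EV and 6.62 in YUMM1.7-EV. Ifngr1, a chain of the interferon-γ receptor, was lower in B16-F10 Ctrl than in YUMM2.1-EV by a log2 fold change of -1.98 (adjusted p = 1.0e-05), and its partner chain Ifngr2 was higher by 1.60 (adjusted p = 8.3e-05). Irf1, the transcription factor through which interferon-γ acts on many class I genes, was lower than in YUMM1.7-EV by -1.91 (adjusted p = 1.3e-06). Among 26 interferon-stimulated genes, 20 were tested. YUMM1.7-EV had 11 higher and 1 lower than YUMM2.1-EV (median 0.98), where 37.1% of all genes were called. Against YUMM2.1-EV, B16-F10 Ctrl had 7 lower and 2 higher (median -0.47, and -0.01 over all genes), where 54.3% of all genes were called. B16-F10 Ctrl had 13 lower and 4 higher than YUMM1.7-EV (median -1.76, and 0 over all genes). Iigp1, a GTPase induced by interferon, was at 6.20 CPM in YUMM1.7-EV, 0.0539 in YUMM2.1-EV and 0.0477 in B16-F10 Ctrl. Rsad2, an antiviral enzyme, was among the 4 higher genes, with 21.3 CPM in B16-F10 Ctrl and 0.776 in YUMM1.7-EV. Cells of the 3 lines differ in many genes besides, and the part of these regulators in the class I levels was not tested.

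Of 19 other genes of the class I pathway, 16 were tested between lines. In B16-F10 Ctrl 6 were lower and 3 higher than in YUMM2.1-EV, and 6 lower and 5 higher than in YUMM1.7-EV. Of all genes 54.3% and 54.5% were called in these comparisons. The proteasome activator subunit Psme2 was lower than in YUMM2.1-EV by a log2 fold change of -1.55 (adjusted p = 7.9e-06), and Hfe, a class I-like molecule of iron uptake, was higher by 2.61 (adjusted p = 4.7e-05). Erap1, the aminopeptidase that trims peptides for class I, was lower than in YUMM1.7-EV by -2.23 (adjusted p = 3.9e-05). YUMM1.7-EV had 1 gene higher and 4 lower than YUMM2.1-EV, where 37.1% of all genes were called. Erap1 was higher by 1.42 (adjusted p = 0.0016). The tapasin-related Tapbpl, which edits peptides on class I molecules away from the transporter, was lower by -1.32 (adjusted p = 6.4e-05). The 3 constitutive catalytic subunits of the proteasome were read well in every library, at a summed level of 373 to 537 CPM, where Psmb8 and Psmb9 were near 0.

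The share of H2-K1 in the counts of H2-K1 and H2-D1 was highest in B16-F10 Ctrl and lower in every YUMM2.1 and aC3 library than in any B16-F10 or YUMM1.7 library. It describes these 2 counts and does not compare the amounts of the proteins. It was 38.3% and 40.3% in B16-F10 Ctrl, 21.2% and 27.2% in B16-F10 Bmal1 KO, and 19.9% to 29.1% in the 6 YUMM1.7 libraries, a range that holds both Bmal1 KO values. The 6 aC3 libraries had 7.52% to 15.8% and the 6 YUMM2.1 libraries without a hairpin 4.62% to 13.4%. Exact 95% binomial intervals, which cover counting error only, were 35.3% to 41.3% for the first B16-F10 Ctrl library and 2.61% to 7.498% for the lowest YUMM2.1 library. In the 6 hairpin libraries with WT-Bmal1 the share was between 0% and 2.26%, in the 6 with dHLH-Bmal1 between 1.15% and 9.64%, and in the 6 with EV between 3.06% and 15.7%, so that EV and dHLH-Bmal1 overlapped. The library with shMyh9#4 and WT-Bmal1 that had no H2-K1 count, against 105 of H2-D1, allows a share of up to 3.45% by the same interval.

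**Figure D3:**
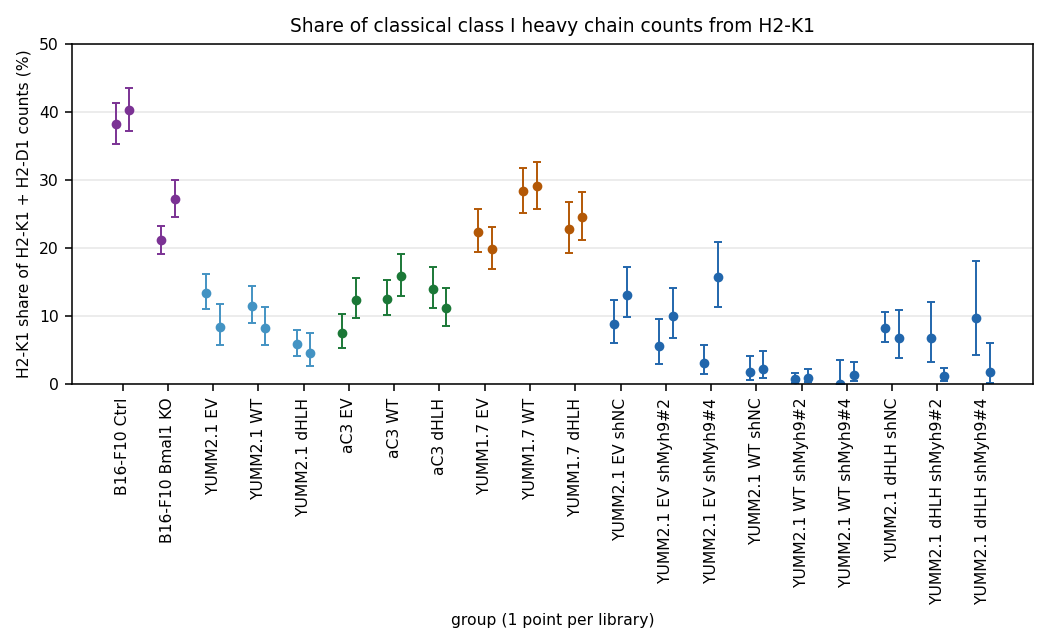
H2-K1 counts as a percentage of H2-K1 and H2-D1 counts (y axis) in each library (points, with exact 95% binomial intervals) by group (x axis). B16-F10 Ctrl is highest at 38.3% and 40.3%, and all 6 hairpin libraries with WT-Bmal1 lie between 0% and 2.26%.

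In aC3, cells without Bmal1, Tapbp rose with both vectors. It was at 23.5 and 19.8 CPM with EV, 32.0 and 41.6 under WT-Bmal1 and 43.3 and 43.2 under dHLH-Bmal1. Both vectors lay above EV in every library. The log2 fold change was 0.76 with WT-Bmal1 (SE 0.14, adjusted p = 0.0035) and 0.98 with dHLH-Bmal1 (SE 0.14, adjusted p = 0.00089). Tapbp was the 1 called member of 6 tested in each comparison, where 11.2% and 10.9% of all genes were called. The call with dHLH-Bmal1 held in all 11 alternatives run. The call with WT-Bmal1 was lost without EV replicate 2 (adjusted p = 0.063), without WT-Bmal1 replicate 2 (0.56, adjusted p = 0.065) and in 1 fit of all 40 libraries (adjusted p = 0.054). The 2 comparisons share their EV libraries. WT-Bmal1 and dHLH-Bmal1 were compared directly, and no member was called by edgeR (0 of 6 at an unadjusted p under 0.05, 0 with DESeq2), where 0.877% of all genes were. The difference in Tapbp between them was -0.22 (SE 0.14, adjusted p = 0.56).

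The heavy chains of aC3 were higher in both WT-Bmal1 libraries than in both EV libraries, without a call. H2-K1 was at 3.22 and 6.03 CPM with EV, 7.84 and 9.04 under WT-Bmal1 and 7.45 and 6.13 under dHLH-Bmal1. The log2 fold change with WT-Bmal1 was 0.87 (SE 0.29, adjusted p = 0.071). It was called where the low-count filter was left out or the replicate number was added as a block. H2-D1 gave 0.32 (SE 0.11, adjusted p = 0.075), from 39.6 and 42.7 CPM with EV to 55.0 and 48.1. B2m, Tap1 and Cd274 overlapped between the vectors. Of 14 other class I genes tested, 2 were higher and 1 lower with WT-Bmal1, where 11.2% of all genes were called. Mr1, which presents vitamin metabolites, rose by 1.14 (adjusted p = 0.017), Psme2 rose by 0.57 (adjusted p = 0.0099), and H2-T23, the mouse Qa-1 molecule, was at 150 CPM against 210 (log2 fold change -0.49, adjusted p = 0.0021). H2-T23 was lower with dHLH-Bmal1 too (-0.53, adjusted p = 0.0018) and was the 1 gene of these 14 called there. The regulators had 4 of 25 higher with WT-Bmal1, among them Rfx5, a subunit of the RFX complex at class I promoters (0.91, adjusted p = 0.016), and Jak2 (0.85, adjusted p = 0.00051). With dHLH-Bmal1, where 10.9% of all genes were called, 3 regulators were higher, among them Stat3 (0.49, adjusted p = 0.0027).

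In YUMM2.1, which has its own Bmal1, no member was called for either vector as the libraries are labelled. WT-Bmal1 against EV called 0% of all 14323 genes (98 genes at an unadjusted p under 0.05, 0 of 6 members, and 0 members with DESeq2). dHLH-Bmal1 against EV called 13.2% of all genes, and dHLH-Bmal1 against WT-Bmal1 13%. In both, 0 of 6 members had an unadjusted p under 0.05, and DESeq2 called 0. Tapbp was at 25.7 and 26.5 CPM with EV, 30.8 and 26.4 under WT-Bmal1 and 16.7 and 25.6 under dHLH-Bmal1, the lowest of the 3 vectors. H2-K1 was at 7.64 and 3.13 CPM with EV, 5.47 and 3.19 under WT-Bmal1 and 3.60 and 1.78 under dHLH-Bmal1. Each of these 3 groups spans a wide range, and EV and dHLH-Bmal1 overlapped, although dHLH-Bmal1 was below EV within each replicate number. Same-numbered YUMM2.1 libraries deviated together (correlation 0.133 to 0.297 over the 3 pairs of groups), and with the replicate number as a block H2-K1 was not called either. With the labels exchanged EV was at 7.64 and 5.47, WT-Bmal1 at 3.13 and 3.19, and EV lay above both other groups.

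The exchange gave 2 calls with dHLH-Bmal1. dHLH-Bmal1 against EV then called 28.7% of all genes, and H2-K1 was lower by a log2 fold change of -1.26 (SE 0.37, adjusted p = 0.036). B2m was higher by 0.41 (SE 0.10, adjusted p = 0.019), from 458 and 514 CPM with EV to 615 and 676. With the replicate number as a block and the deposited labels, B2m alone was called. WT-Bmal1 against EV called 0.705% of all genes and no member (1 of 6 at an unadjusted p under 0.05), and dHLH-Bmal1 against WT-Bmal1 18.9% and no member (0 of 6). Cd274 was at 1.58 and 0.971 CPM with EV as deposited, 1.62 and 1.696 under WT-Bmal1 and 1.89 and 3.33 under dHLH-Bmal1, the highest of the 3, and was not called (1.01, SE 0.51, adjusted p = 0.25).

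The other lists had few calls with dHLH-Bmal1 in YUMM2.1, where 13.2% of all genes were called as deposited. Tapbpl was the 1 gene of 15 other class I genes that fell, from 415 to 200 CPM (log2 fold change -1.05, adjusted p = 0.011). Of 14 interferon-stimulated genes, 3 fell and none rose (median -0.75, and -0.01 over all genes). They were Ifit3 (-1.72, adjusted p = 0.049), Bst2, which tethers virus to the cell (-1.69, adjusted p = 0.0099), and the guanylate-binding protein gene Gbp7 (-1.52, adjusted p = 0.0062). Of 7 checkpoint ligands and PD-L1 stabilisers, Lgals9 (1.52, adjusted p = 0.0065) and Cd47, the signal against phagocytosis (0.80, adjusted p = 0.014), rose, and the B7 family member Cd276 fell (-0.71, adjusted p = 0.0498). Among 25 regulators, Stat3 and Nfyb fell. With the 2 labels exchanged, where 28.7% of all genes were called, 2 other class I genes and 4 interferon-stimulated genes were lower and none higher, 1 regulator was higher and 4 lower, and 2 checkpoint genes were higher and 2 lower. Tapbpl was lower then too (-0.95, adjusted p = 0.00092). The melanocyte marker sum was 498 and 516 CPM with EV as deposited and 81.4 and 94.1 with dHLH-Bmal1. Of its 7 genes 2 were tested as deposited, and 1 was lower. The part of these markers in these differences was not tested.

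**Figure D4:**
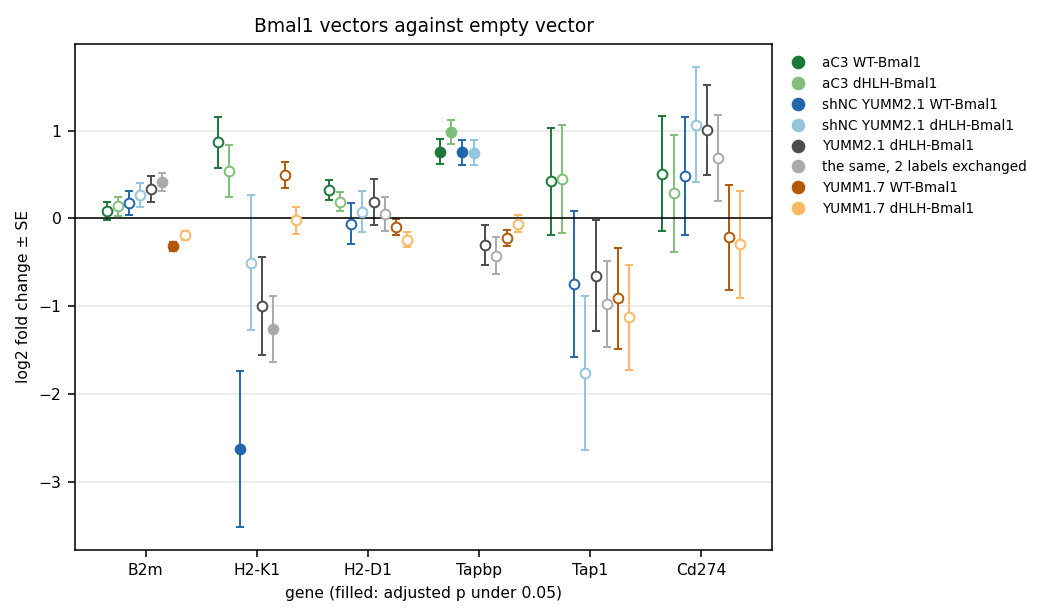
Log2 fold change with its SE (y axis) of 6 members (x axis) in cells with WT-Bmal1 or dHLH-Bmal1 against EV (colours, filled where the adjusted p was under 0.05), with the YUMM2.1 dHLH-Bmal1 comparison both as deposited and with 2 labels exchanged. Tapbp lies above 0 in aC3 and in YUMM2.1 with shNC, at 0.75 to 0.98, and below 0 with dHLH-Bmal1 in YUMM2.1 without a hairpin.

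In YUMM2.1 cells that carried the control hairpin, Tapbp rose with both vectors and H2-K1 fell with WT-Bmal1. Tapbp was at 24.7 and 21.6 CPM with EV, 40.5 and 37.4 under WT-Bmal1 and 38.9 and 38.6 under dHLH-Bmal1, all 4 vector libraries above EV. The log2 fold change was 0.75 for WT-Bmal1 (SE 0.14, adjusted p = 0.00091) and 0.75 for dHLH-Bmal1 (SE 0.14, adjusted p = 0.00068). Both held in all 11 alternatives. H2-K1 had 29 and 46 counts with EV, 5 and 6 under WT-Bmal1 and 52 and 15 under dHLH-Bmal1, or 3.58 and 5.16 CPM, 0.680 and 0.713, and 3.61 and 2.43. WT-Bmal1 lay below both other groups. Its log2 fold change was -2.62 (SE 0.89, adjusted p = 0.042), and the call was lost with each of the 4 libraries left out (adjusted p from 0.084 to 0.19) and with the replicate block (adjusted p = 0.053). WT-Bmal1 against EV called 2 of 7 members and 22.3% of all genes, and dHLH-Bmal1 against EV 1 of 7 and 26.4%. H2-D1 was at 37.1 and 34.1 CPM with EV, 37.3 and 30.9 under WT-Bmal1 and 40.6 and 33.9 under dHLH-Bmal1. B2m was at 367 and 429, 366 and 532, and 459 and 496 CPM. Neither was called.

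Tapbpl fell in both of these comparisons while Tapbp rose. It was at 381 CPM with EV, 163 with WT-Bmal1 (log2 fold change -1.22, adjusted p = 0.00011) and 161 with dHLH-Bmal1 (-1.23, adjusted p = 6.2e-05), and it is named for dHLH-Bmal1 after its values were seen. Of 16 other class I genes, in comparisons that called 22.3% and 26.4% of all genes, 1 rose and 2 fell with WT-Bmal1, and 3 rose and 2 fell with dHLH-Bmal1. H2-T23 fell with WT-Bmal1 by 0.72 on the log2 scale (adjusted p = 0.017), and Hfe rose by 1.75 (adjusted p = 0.031). Hfe rose with dHLH-Bmal1 by 2.00 (adjusted p = 0.012), and Mr1 by 1.40 (adjusted p = 0.031). Of 16 interferon-stimulated genes, 5 fell and none rose with WT-Bmal1 (median -0.79), and 4 fell and none rose with dHLH-Bmal1 (median -1.06, and 0.02 over all genes in both). The chemokine gene Cxcl10 was at 8.72 CPM with EV, 1.99 with WT-Bmal1 (log2 fold change -2.13, adjusted p = 0.0033) and 1.33 with dHLH-Bmal1 (-2.65, adjusted p = 0.00049). The regulators rose and fell in like numbers, 3 and 4 of 25 under WT-Bmal1 and 4 and 3 under dHLH-Bmal1. Cd47 rose with WT-Bmal1 (0.79, adjusted p = 0.00027) and with dHLH-Bmal1 (0.98, adjusted p = 1.7e-05). The melanocyte marker sum was 346 and 349 CPM with EV, 119 and 122 under WT-Bmal1 and 41.3 and 44.3 under dHLH-Bmal1, and the endothelial marker sum of 3 genes was 7.96 and 10.1, 20.9 and 21.5, and 14.5 and 16.5. Of the 7 melanocyte markers 3 were tested in each comparison, and 1 was lower and none higher. The median log2 fold change of these 3 was 0.37 with WT-Bmal1 and 0.03 with dHLH-Bmal1. The fall of the sum was thus not shared by all tested markers. The part of both marker sums in these results was not tested.

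The Myh9 hairpins called few members. With shMyh9#2, the better knockdown, edgeR called no member in EV, WT-Bmal1 or dHLH-Bmal1 cells, where 6.65%, 4.76% and 0.559% of all genes were called. At an unadjusted p under 0.05 there were 1, 0 and 1 of 7 members, and DESeq2 called 0. With shMyh9#4 there was none in EV and WT-Bmal1 cells (1.71% and 0.236% of all genes, with 2 and 1 of 7 members at an unadjusted p under 0.05 and 0 with DESeq2). In dHLH-Bmal1 cells shMyh9#4 called 2 of 7 members and 15.1% of all genes. H2-D1 was at 40.6 and 33.9 CPM with shNC and 21.1 and 20.2 with shMyh9#4, a log2 fold change of -0.84 (SE 0.25, adjusted p = 0.032). The groups did not overlap, and the call was lost with any 1 of the 4 libraries left out, with adjusted p from 0.054 to 0.22. Tapbp was at 38.9 and 38.6 CPM with shNC and 46.2 and 56.5 with shMyh9#4 (0.44, SE 0.14, adjusted p = 0.044). Its call was lost in 7 of 11 alternatives, among them without either shNC library (adjusted p = 0.19 and 0.17) and without shMyh9#4 replicate 2 (0.27, adjusted p = 0.43). These 2 shMyh9#4 libraries had 75 and 116 counts of H2-D1.

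Cd274 in the dHLH-Bmal1 cells stood low with shMyh9#2, without a call. It had 41 and 19 counts with shNC, 2 and 9 with shMyh9#2 and 8 and 18 with shMyh9#4, that is 2.85 and 3.08 CPM, 0.435 and 0.634, and 2.26 and 3.13. The log2 fold change with shMyh9#2 was -2.37 (SE 0.73, adjusted p = 0.21). In WT-Bmal1 cells Cd274 was at 2.04 and 1.90 CPM with shNC and 1.07 and 0.568 with shMyh9#2, and in EV cells shNC with 1.36 and 1.46 overlapped shMyh9#2 with 2.11 and 1.00. H2-K1 was at 0.238 and 0.325 CPM in WT-Bmal1 cells with shMyh9#2 and at 0 and 0.491 with shMyh9#4, which is 0 to 5 counts.

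In YUMM1.7, B2m fell with WT-Bmal1. It was at 593 and 595 CPM with EV, 480 and 465 under WT-Bmal1 and 491 and 547 under dHLH-Bmal1, both vectors below EV in every library. The log2 fold change with WT-Bmal1 was -0.32 (SE 0.05, adjusted p = 0.020), the 1 called member of 7 where 0.138% of all genes were called. This B2m call was kept in 7 of 11 alternatives and was lost in the fit of all 40 libraries. The call was lost without EV replicate 1 (adjusted p = 0.43), EV replicate 2 (adjusted p = 0.24) or WT-Bmal1 replicate 2 (adjusted p = 0.056). With dHLH-Bmal1 the value was -0.19 (SE 0.05, adjusted p = 0.16), and edgeR called no member (2 of 7 at an unadjusted p under 0.05) where 0.63% of all genes were called. DESeq2 called 1, B2m. H2-K1 was at 13.6 and 12.6 CPM with EV and 18.6 and 18.1 with WT-Bmal1, above EV in both libraries and not called (0.50, SE 0.15, adjusted p = 0.26). Among the other class I genes and the regulators none was called with either vector, and of 20 interferon-stimulated genes Ifit3 fell with dHLH-Bmal1 (-1.29, adjusted p = 0.041).

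In B16-F10, no member was called between Bmal1 KO and Ctrl (1 of 5 at an unadjusted p under 0.05, 0 with DESeq2), where edgeR called 0.44% of all genes. H2-D1 was at 50.9 and 35.7 CPM in Bmal1 KO and 30.0 and 27.3 in Ctrl (log2 fold change 0.59, SE 0.23, adjusted p = 0.42). Tapbp was at 21.1 and 43.2 CPM in Bmal1 KO and 17.6 and 19.8 in Ctrl (0.77, SE 0.36, adjusted p = 0.47). Cd274 was at 8.36 and 10.6 CPM against 6.77 and 5.67 (0.60, SE 0.27, adjusted p = 0.46), and H2-K1 at 13.7 and 13.3 against 18.6 and 18.4 (-0.46, SE 0.20, adjusted p = 0.45). The second Bmal1 KO library stood apart in Tapbp from the other 3, which lay between 17.6 and 21.1 CPM. The Bmal1 KO pair differed from each other more than the pair of any other group, with a chi-square per gene of 96.5 against at most 22.2 elsewhere. Without Bmal1 KO replicate 1 H2-K1, B2m, Tapbp and Cd274 were called, without Bmal1 KO replicate 2 H2-D1 alone, and Tapbp was called in the fit of all 40 libraries. Each clone was sequenced as 1 clone, so the clone and the loss of Bmal1 cannot be told apart.

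Whether the response to a vector or hairpin differed between settings was tested directly for 6 pairs of effects in the fit of all 40 libraries, with 8 members tested. The Tapbp response to dHLH-Bmal1 was -0.31 in YUMM2.1 and 1.00 in aC3, a difference of -1.31 on the log2 scale (SE 0.31, adjusted p = 0.0040), and it was the 1 member called of 8 where 11.6% of all genes were. With the labels exchanged it was -1.42 (adjusted p = 0.0012). Between YUMM2.1 without a hairpin and with shNC the Tapbp difference in the dHLH-Bmal1 response was -1.06 (SE 0.31, adjusted p = 0.078), and 1.82% of all genes were called. It was called once the labels were exchanged. No member was called for dHLH-Bmal1 between YUMM2.1 and YUMM1.7 (9.42% of all genes, 1 of 8 members at an unadjusted p under 0.05), for WT-Bmal1 between YUMM2.1 and aC3 (0.168%, 2 of 8), or for shMyh9#2 between WT-Bmal1 and EV cells (3.47%, 0 of 8) and between dHLH-Bmal1 and EV cells (2.09%, 1 of 8). DESeq2 was not run on these differences, and no library was left out in turn for them. The largest of these in size for Cd274 was the shMyh9#2 effect in dHLH-Bmal1 cells less that in EV cells, at -2.48 (SE 0.81, adjusted p = 0.11).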

How the data were processed

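RNA of 40 libraries of cultured mouse melanoma cells was read from the 3′ end with QuantSeq, from 100 ng of RNA treated with DNaseI and as single reads of 75 bases. The authors used bowtie2 and mm10 for alignment and RSEM for gene counts on Ensembl transcripts, and deposited whole counts without normalization. The submitters' processing notes give RSEM version 1.2.3, while the methods of the study name a different version. The strand of counting is not given in the sources used here. Their own tests used DESeq2 and a 5% false discovery rate.

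Symbols and positions come from GENCODE M21 (GRCm38), which named 99.63% of the identifiers. Counts were fitted with edgeR 4.0.16 in R 4.3.3 (TMM, filterByExpr, quasi-likelihood F test, Benjamini-Hochberg adjustment over all genes of the fit, called under 0.05). The groups of 1 experiment entered 1 fit, and differences between effects used all 40 libraries. Scripts were tested on simulated data. The members and all lists were chosen with earlier results of these data known, so no list serves as independent support. Every called member is named in every comparison, and values of members that were not called are given only in part. Of each other list at most the 3 called genes with the largest absolute log2 fold change are named, unless stated. No 2 libraries of a group agreed within sampling noise. The alternatives were the Wald test of DESeq2 1.42.0, its size factors in the edgeR fit, library totals without TMM, no filter, a mean of at least 10 counts, 1 fit of all 40 libraries, the replicate block, each library left out, and the 2 labels exchanged.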

Additional observations from a re-analysis of the deposited data

Results flagged for a closer look

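The response of Tapbp, the tapasin gene, to dHLH-Bmal1 differed between YUMM2.1 and its Bmal1-null clone aC3. The difference of the 2 log2 fold changes was -1.31 (SE 0.31, edgeR adjusted p = 0.0040, with 11.6% of all genes called for this difference). In aC3 both dHLH-Bmal1 libraries, at 43.3 and 43.2 CPM, were above both EV libraries, at 23.5 and 19.8. In YUMM2.1 the dHLH-Bmal1 libraries, at 16.7 and 25.6 CPM, were below the EV libraries, at 25.7 and 26.5, but the second of them only just. The dHLH-Bmal1 effect within YUMM2.1 was not itself called (-0.30, adjusted p = 0.43). YUMM2.1 with shNC, which also has its own Bmal1, had a rise as in aC3. There Tapbp was at 24.7 and 21.6 CPM with EV and 38.9 and 38.6 with dHLH-Bmal1. The log2 fold change was 0.74 in the fit of all 40 libraries. What sets these cells apart was not tested, and no library was left out in turn for this difference. No group had 4 or more libraries, so single libraries were not tested for standing apart.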

How the results depend on the processing

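The count of called members changed with the processing as follows. With the replicate block it was 2 in place of 1 for aC3 WT-Bmal1 against EV, 1 in place of 2 for WT-Bmal1 against EV in shNC cells and for shMyh9#4 in dHLH-Bmal1 cells, 1 in place of 0 for YUMM2.1 dHLH-Bmal1 against EV, and 1 in place of 0 for the dHLH-Bmal1 effect in YUMM2.1 less that in YUMM1.7. The labels do not say what a shared number marks. Same-numbered libraries deviated together in YUMM2.1 (mean correlation 0.242), where the block gave the B2m call, and in the other fits the mean correlation was between -0.0111 and 0.087. No filter gave 2 for aC3 WT-Bmal1, 1 for shMyh9#4 in dHLH-Bmal1 cells and 1 in place of 0 for YUMM1.7 dHLH-Bmal1, where DESeq2's Wald test also gave 1. The fit of all 40 libraries gave 0 for aC3 WT-Bmal1 and for YUMM1.7 WT-Bmal1, 1 for B16-F10 Bmal1 KO and 1 for shMyh9#4 in dHLH-Bmal1 cells, where library totals without TMM gave 1 as well. With the 2 labels exchanged the count was 7 in place of 6 for B16-F10 Ctrl against YUMM2.1-EV, 3 in place of 2 for YUMM1.7-EV against YUMM2.1-EV, 1 for aC3-EV against YUMM2.1-EV, 2 for YUMM2.1 dHLH-Bmal1 against EV, and 1 in place of 0 for the dHLH-Bmal1 effect in YUMM2.1 less that in YUMM1.7 (B2m) and less that in shNC cells (Tapbp). The cause of these changes was not tested.

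Leaving out 1 library at a time gave 0 to 1 called members for aC3 WT-Bmal1 against EV, aC3-EV against YUMM2.1-EV, YUMM1.7 WT-Bmal1 against EV and shMyh9#4 in dHLH-Bmal1 cells, 0 to 4 for B16-F10 Bmal1 KO, 1 to 3 for YUMM1.7-EV against YUMM2.1-EV, 1 to 2 for WT-Bmal1 against EV in shNC cells, 4 to 7 for B16-F10 Ctrl against YUMM2.1-EV and 5 to 6 against YUMM1.7-EV. A group left with 1 library is assumed to vary like the others. Over the single calls and the libraries left out, 64 kept their side of the threshold and 24 did not. No call changed direction under any alternative run. Tap2, Nlrc5, Psmb8 and Psmb9 were too shallow for most tests, and at 3.55 to 24.5 counts per CPM, differences in Cd274 and Tap1 rest on few reads.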

Other observations

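The genes whose group means ran most like those of a member were sought among 10667 genes, by Pearson's r over the 20 group means of log2 CPM. The groups share lines, so these values are a description and have no p. H2-K1 ran most like Cmtm7 (r = 0.925), Hacd2 (0.913) and 9430038I01Rik (0.910). H2-D1 ran most like Sec22b (0.886), Knstrn (0.866) and Tmem123 (0.857). B2m ran most like Casp12 (0.965), Gm43128 (0.959) and Itm2b (0.957). Tapbp ran most like Rab22a (0.864), Dtx3l (0.856) and Keap1 (0.813), and Cd274 most like Pisd-ps2 (0.885), Map3k1 (0.881) and Gpr137b-ps (0.874). No other member was among these genes. Over the same 20 means H2-K1 and H2-D1 had r = 0.541, and B2m and Cd274 had r = -0.76, with both B16-F10 groups lowest in B2m and highest in Cd274.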
